A study of Homo sapiens with 18 samples.

Results

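Histone lysine methyltransferases and demethylases, the enzymes that write and erase methyl groups on histone lysines, were followed across 18 RNA-seq libraries. All came from WM989 cells, an established line of human melanoma. The group was a list of 49 gene symbols fixed by name, with the cofactors EED, SUZ12 and MEN1 among them. All 49 were matched to an Ensembl identifier among the 63677 genes of the table, and 48 passed the filter on low counts and were tested. The target of the drug used here, the H3K79 methyltransferase DOT1L, is not one of them. KMT2B, a methyltransferase of H3K4, was the member not tested: its identifier (ENSG00000272333) held 3 counts over the 18 libraries, which cannot be read as the level of the gene without knowing how the counting annotation treated it.

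Treatment lasted 7 days and used either DMSO, as solvent control, or 4 µM EPZ5676 (pinometostat), an inhibitor of DOT1L. Under each treatment, 3 libraries were made from the bulk population, 3 from a sort for high NGFR and EGFR at the surface (high cells) and 3 from a sort for low NGFR and EGFR (low cells). All libraries were poly(A)-selected. High NGFR and EGFR mark rare cells of this line in work on resistance to targeted therapy, and the study asked how inhibition of DOT1L changes such variability.

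Methylation of histone H3 on lysine 4 and lysine 36 accompanies active transcription, and methylation of lysine 9 and lysine 27 accompanies repression. SET-domain enzymes add the marks. Flavin-dependent enzymes and the JmjC family remove them. Polycomb repressive complex 2 writes lysine 27 methylation, and its catalytic subunit EZH2 is often raised in proliferating tumour cells, melanoma among them. Several of the enzymes act on more than 1 lysine, so each is placed here under 1 of its substrates.

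Levels are TMM-scaled read counts (CPM, counts per library brought to a common size), given for replicates 1, 2 and 3 in that order or as mean ± SD (n = 3). Differences are log2 fold changes ± SE. A gene is said to have changed, or to be called, where the adjusted p was below 0.05 after Benjamini-Hochberg adjustment over all 18121 tested genes, in the quasi-likelihood test of edgeR. Nothing says that replicates came from separate cultures, so p-values measure only the spread between these samples. In these pools of cells, fewer cells that express a gene and less RNA per cell cannot be told apart.

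Before the results, 2 features of the libraries need stating. DMSO bulk replicate 1 stood apart: on the first principal component (66.6% of the variance) it lay at -30.9, toward the high cells, while DMSO bulk replicates 2 and 3 lay at 45.1 and 45.6. It held 220.3 CPM of NGFR, against 12.59 and 9.24. This library enters the shared estimate of spread in every comparison, and values without it are given for several members. In 6 libraries over 16% of reads fell on no annotated feature (DMSO high replicate 3, EPZ5676 bulk replicates 1 and 3, EPZ5676 high replicates 1 and 2 and EPZ5676 low replicate 1), so this share is partly aligned with the treatment. Melanocyte genes were present in all groups. In all groups 5 of 6 keratinocyte markers, 5 of 7 leukocyte markers and 3 of 6 endothelial markers (PECAM1, CDH5 and TEK) stayed under 1 CPM. The 6 endothelial markers summed to 23.2 to 26.8 CPM in DMSO high and 29.7 to 36.1 CPM in DMSO low cells. Of the 3 that were tested, 2 were called higher and 1 lower in DMSO high cells.

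Per kilobase of exon, the mean level over all 18 libraries was highest for KDM1A (36.6 CPM per kb), EZH2 (34.2) and KDM5C (18.4). The lowest of the tested members were KDM7A (0.883), PRDM7 (1.77) and EHMT1 (2.69). Lengths were taken from GENCODE 29, which may not be the annotation used for counting.

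Which chromatin enzymes go with the NGFR and EGFR state was asked first under DMSO, by setting high against low cells. Many members differed, and most by little. Of the 48 tested, 34 were called (70.8%), 19 higher and 15 lower in high cells, where 56.3% of all tested genes were called (29.6% higher and 26.7% lower). The median size of the log2 fold change was 0.28 over the members and 0.42 over all tested genes. Of the called members, 2 differed at least 2-fold (PRDM7 and KDM4C) and 9 at least 1.5-fold, while 18.9% of all tested genes were both called and at least 2-fold apart. The libraries of the groups did not overlap for 34 of the 48, against 60.3% of all tested genes.

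Counts by role, here and below, are read beside the 56.3% of all tested genes called in this comparison. By role, no H3K9 methyltransferase was called higher, and 5 of 7 were lower. Both flavin-dependent demethylases were lower. All 5 JmjC demethylases of H3K36 were called, 4 higher and 1 lower. Within the H3K4 and the H3K27 demethylases, close relatives went opposite ways. With scaling by library size alone, 15 members were higher and 17 lower, so the balance of the directions depends on the scaling, although no called member changed sign. Other genes of these cells moved as well. The summed level of 8 melanocyte markers was 1230 to 1450 CPM in DMSO high and 11300 to 11800 CPM in DMSO low cells. That of 8 fibroblast markers was 1080 to 1410 against 72.4 to 75.5 CPM, with THY1 under 1 CPM in all groups. Of the 7 fibroblast markers tested, 6 were called higher and 1 lower in high cells. Of 20 proliferation genes, 13 were higher and 6 lower (median 0.18). The part of these lists in the members' differences was not tested.

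**Figure D1:**
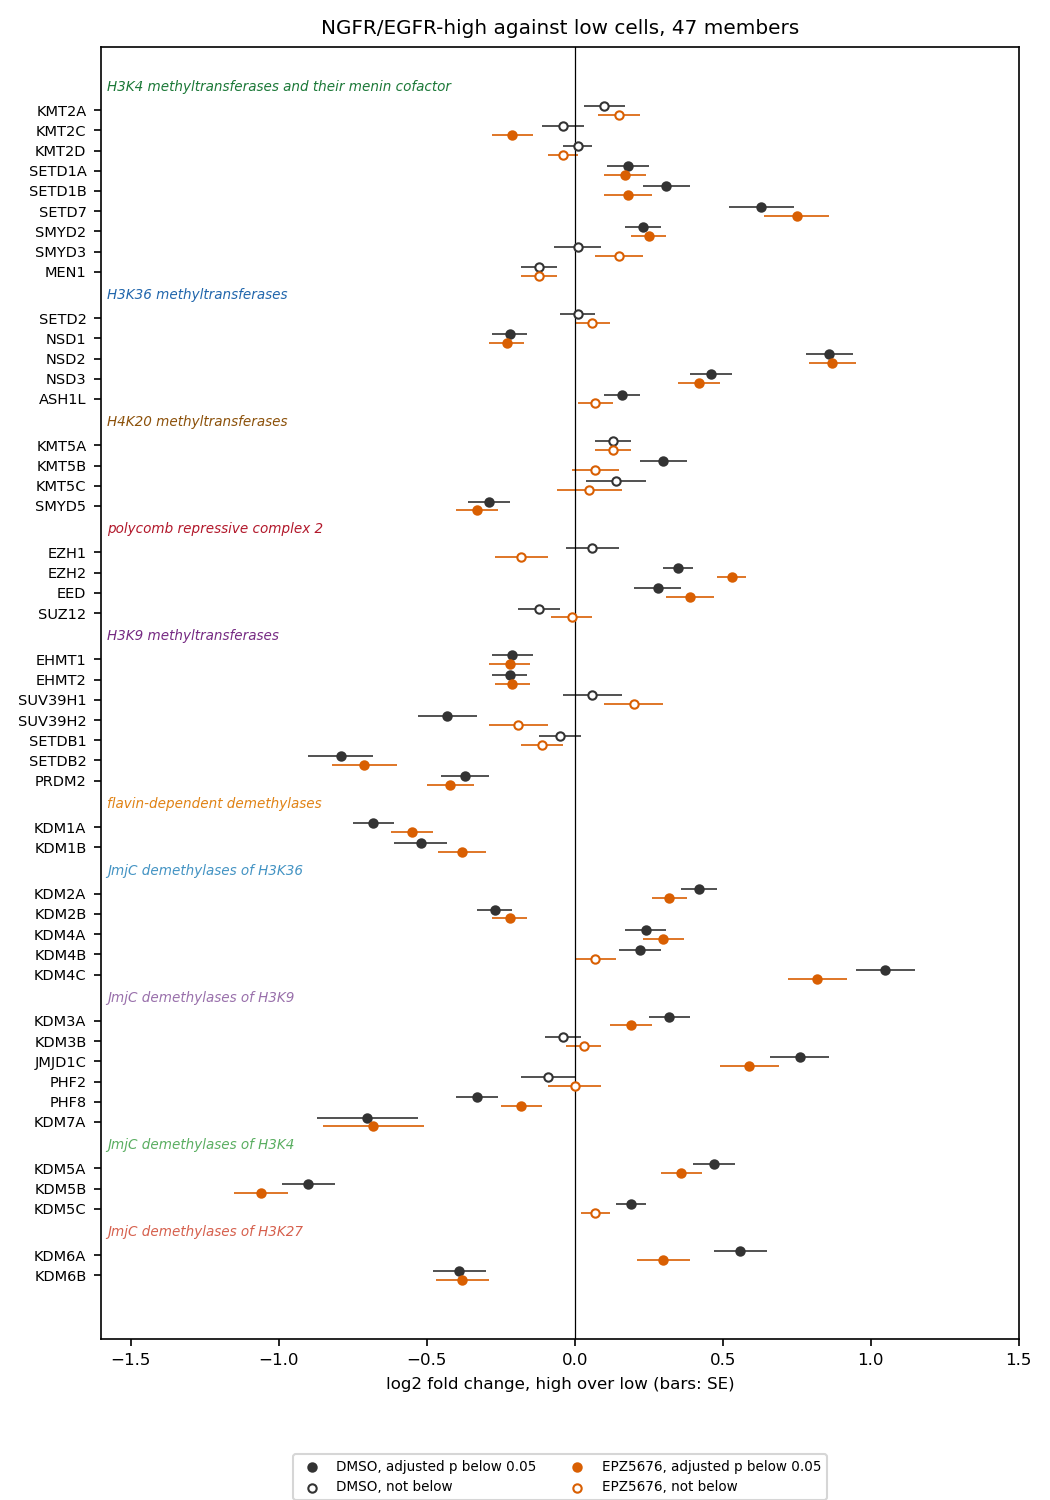
Log2 fold change of high over low cells (x axis, bars show the SE) for 47 tested members in rows, grouped by role, under DMSO (black) and EPZ5676 (orange), with filled points where the adjusted p was below 0.05. PRDM7, at -4.76 under DMSO and -2.85 under EPZ5676, lies outside the axis and is not drawn. KDM4C and NSD2 reach the farthest right and KDM5B the farthest left under both treatments.

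Start-site windows are shown for the member with the largest negative difference (PRDM7), the 2 with the smallest p among those higher (NSD2 and KDM4C) and EZH2, which was called lower under the drug in bulk and in low cells. Each window runs from 250 bases before to 50 bases after a RefSeq transcript start on GRCh38.p14, 5′ to 3′ on the gene's strand: EZH2 at chr7:148884242-148884541 (minus strand), NSD2 at chr4:1871143-1871442 (plus strand), PRDM7 at chr16:90077282-90077581 (minus strand) and KDM4C at chr9:6757723-6758022 (plus strand). The capitals mark matches, on either strand, to E2F forms (TTTCCCGC, TTTGGCGC or TTTGGCGG) in EZH2, NSD2 and PRDM7, to the cell-cycle element CHR (TTTGAA) in NSD2, and to AP-1 (TGANTCA) in KDM4C. EZH2 has another window, at chr7:148883436-148883735, with no match to any motif searched, and the window of KDM5B, the member with the largest negative difference after PRDM7, has none either; both are not printed.
EZH2: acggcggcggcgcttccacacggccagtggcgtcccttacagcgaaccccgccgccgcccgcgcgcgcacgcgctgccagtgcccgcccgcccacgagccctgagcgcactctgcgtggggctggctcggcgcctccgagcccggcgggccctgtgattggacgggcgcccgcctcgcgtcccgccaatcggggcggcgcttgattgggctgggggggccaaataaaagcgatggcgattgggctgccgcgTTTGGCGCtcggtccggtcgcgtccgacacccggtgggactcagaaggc
NSD2: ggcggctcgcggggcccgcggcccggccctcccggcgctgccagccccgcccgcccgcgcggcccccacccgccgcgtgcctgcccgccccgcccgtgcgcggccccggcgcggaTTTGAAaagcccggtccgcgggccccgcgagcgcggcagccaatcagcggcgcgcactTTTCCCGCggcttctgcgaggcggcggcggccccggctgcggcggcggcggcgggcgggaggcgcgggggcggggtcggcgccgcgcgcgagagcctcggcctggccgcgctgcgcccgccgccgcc
PRDM7: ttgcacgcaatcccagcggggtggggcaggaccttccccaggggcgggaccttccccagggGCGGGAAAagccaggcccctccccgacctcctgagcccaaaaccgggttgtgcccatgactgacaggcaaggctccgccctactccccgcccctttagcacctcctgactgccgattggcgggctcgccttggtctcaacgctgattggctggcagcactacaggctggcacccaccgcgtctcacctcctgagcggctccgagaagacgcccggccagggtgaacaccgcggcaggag
KDM4C: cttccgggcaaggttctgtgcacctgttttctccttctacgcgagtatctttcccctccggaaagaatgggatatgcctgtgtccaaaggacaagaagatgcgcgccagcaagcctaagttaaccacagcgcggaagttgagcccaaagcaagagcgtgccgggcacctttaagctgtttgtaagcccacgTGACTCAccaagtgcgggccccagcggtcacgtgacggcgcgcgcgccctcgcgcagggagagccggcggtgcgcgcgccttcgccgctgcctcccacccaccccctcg

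Windows were found for 47 members (71 windows), and SETD1B and NSD3 had none in the table. An E2F form was present in 11.3% of these windows and in 2.89% of all 35116 windows. The 8 genes with one were EZH2, NSD2, KDM5A and JMJD1C, which were higher in high cells, PRDM7 and KDM1B, which were lower, and EZH1 and SUZ12, which were not called. AP-1 matches lay in 4.23% of the members' windows and 7.71% of all windows. The 3 genes with one, KDM4C, KDM6A and KDM3A, were called higher in DMSO high cells. So were 19 of the 48 tested members and 29.6% of all tested genes. Directions were not counted over all genes with an AP-1 match. CHR was present in 11.3% against 15.2%, and the MITF motif TCATGTG in 0 of 71 against 2.92%. These are matches of letters, with no measurement of binding. The set of all windows was not matched to the members for base composition or expression, so the shares show no enrichment.

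Among H3K4 methyltransferases and their cofactor menin, 4 of 10 tested genes were higher and 1 lower in DMSO high cells. This is 50% called, against 56.3% of all tested genes. PRDM7, a PR-domain methyltransferase of H3K4 and a relative of the meiotic gene PRDM9, stood at 0.486, 0.723 and 0.416 CPM in DMSO high and 20.3, 11.8 and 13.9 CPM in DMSO low cells. The groups were far apart (-4.76 ± 0.62, adjusted p = 2e-05), and the DMSO high libraries held only 29 counts in all, against 959 in the low ones. In bulk libraries PRDM7 stood at 2.25, 15.2 and 11.8 CPM under DMSO, and the low value is that of the library that stood apart. PRDM9, its close copy, had at most 4 counts in any group, and how reads that match both copies were counted is not given in the sources used here. SETD7, which adds a single methyl group to H3K4 and also methylates non-histone proteins, stood at 140, 116 and 131 CPM in DMSO high and 76.3, 90.4 and 83.6 CPM in low cells. All high libraries lay above all low ones (0.63 ± 0.11, adjusted p = 9.43e-05). SETD7 in bulk was at 122, 83.6 and 87.4 CPM. SETD1A, SETD1B and SMYD2 were higher by 0.18 to 0.31, and the libraries overlapped for SETD1A. MEN1, the menin cofactor of the KMT2A and KMT2B complexes, was near the threshold (-0.12 ± 0.06, adjusted p = 0.0782).

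H3K36 methyltransferases were called in 4 of 5 cases, 3 higher and 1 lower, where 56.3% of all tested genes were called. NSD2, which writes dimethylation of H3K36, stood at 335, 305 and 339 CPM in DMSO high and 179, 177 and 183 CPM in DMSO low cells. It was 1.81-fold higher in high cells with no overlap (0.86 ± 0.08, adjusted p = 8.86e-09). In DMSO bulk it was at 278, 207 and 217 CPM, between the sorted groups. NSD3, a relative of NSD2, stood at 113, 103 and 113 CPM against 86.3, 78.8 and 74.2 CPM (0.46 ± 0.07, adjusted p = 7.68e-06). NSD1, also of that family, went the other way (62.8 ± 3.2 against 73.3 ± 5.36 CPM, -0.22 ± 0.06, adjusted p = 0.00433). The trimethylase SETD2 did not pass the test, and ASH1L was higher by 0.16 ± 0.06 with overlapping libraries (adjusted p = 0.0197).

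Of the 4 H4K20 methyltransferases, 1 was higher and 1 lower (50% called, against 56.3% of all tested genes). SMYD5, linked to trimethylation of H4K20, stood at 44.1, 46.1 and 43 CPM in DMSO high and 51.8, 57.9 and 53.1 CPM in DMSO low cells (-0.29 ± 0.07, adjusted p = 0.000978). KMT5B stood at 42.5, 43.1 and 34.3 CPM against 32, 32.9 and 32.3 CPM (0.30 ± 0.08, adjusted p = 0.00372). Neither pair of groups overlapped, although the third high library of KMT5B lay near the low ones. KMT5A, the monomethylase, was near the threshold (0.13 ± 0.06, adjusted p = 0.0576), and KMT5C did not pass.

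In polycomb repressive complex 2, EZH2 and EED were higher in high cells, and SUZ12 and the alternative catalytic subunit EZH1 did not pass. EZH2 stood at 181, 186 and 189 CPM in DMSO high and 147, 143 and 148 CPM in DMSO low cells. Each high library lay above each low one (0.35 ± 0.05, adjusted p = 9.98e-06). EED, the subunit that binds trimethylated H3K27, stood at 46.5, 46.4 and 43.4 CPM against 36.1, 34.4 and 41.5 CPM (0.28 ± 0.08, adjusted p = 0.00477). SUZ12, the scaffold, was at 75.1 ± 3.63 against 81.8 ± 5.31 CPM (-0.12 ± 0.07, adjusted p = 0.167).

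H3K9 methyltransferases were lower in 5 of 7 cases, where 56.3% of all tested genes were called and 26.7% were called lower. SETDB2, a trimethylase of H3K9, stood at 22.3, 20.3 and 22.2 CPM in DMSO high and 42.6, 33.9 and 35.1 CPM in DMSO low cells. The groups were well separated (-0.79 ± 0.11, adjusted p = 4.94e-06). PRDM2, also known as RIZ, stood at 60.9, 48.6 and 56.1 CPM against 77.3, 68.6 and 68.4 CPM (-0.37 ± 0.08, adjusted p = 0.000376). EHMT1 and EHMT2, which form the G9a/GLP dimer for dimethylation of H3K9, were both lower (-0.21 ± 0.07 and -0.22 ± 0.06). SUV39H2 was lower (-0.43 ± 0.10, adjusted p = 0.000777), and its relative SUV39H1 was not called (0.06 ± 0.10). SETDB1 was at 33.1 ± 2.08 against 34.2 ± 1.28 CPM and not called. In GENCODE 29, 20.3% of the exon bases of SUV39H1 and 13.4% of those of SETDB1 lie under exons of a gene on the opposite strand, and the strand setting of the counts is not given in the sources used here.

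Both flavin-dependent demethylases, which remove mono- and dimethylation of H3K4, were lower in high cells. KDM1A (LSD1), the member with the highest level per length, stood at 152, 164 and 156 CPM in DMSO high and 247, 251 and 258 CPM in DMSO low cells. The groups lay 1.60-fold apart with no overlap (-0.68 ± 0.07, adjusted p = 5.45e-08). In DMSO bulk KDM1A was at 184, 235 and 234 CPM. KDM1B (LSD2) stood at 24.5, 23.7 and 23.8 CPM against 36.2, 37.3 and 30 CPM (-0.52 ± 0.09, adjusted p = 2.05e-05), again with no overlap.

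JmjC demethylases of H3K36 were higher except for KDM2B. KDM4C, which also acts on trimethylated H3K9, stood at 49.1, 43.4 and 44 CPM in DMSO high and 24.4, 22 and 19.6 CPM in DMSO low cells. It was the member with the largest positive difference, 2.07-fold (1.05 ± 0.10, adjusted p = 2.02e-08). KDM2A, a CpG island-binding demethylase of dimethylated H3K36, stood at 134, 139 and 129 CPM against 100, 96.2 and 103 CPM (0.42 ± 0.06, adjusted p = 2.71e-06). Its paralog KDM2B was lower (59 ± 2.5 against 71.3 ± 1.77 CPM, -0.27 ± 0.06, adjusted p = 0.000755). KDM4A and KDM4B were higher by 0.24 ± 0.07 and 0.22 ± 0.07. For KDM4A, 40.2% of the exon bases in GENCODE 29 overlap another gene model on the same strand, which could remove reads from its count.

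Of the 6 JmjC demethylases of H3K9, 2 were higher and 2 lower (66.7% called, against 56.3% of all tested genes). JMJD1C, a relative of KDM3A, stood at 98, 76.4 and 90.6 CPM in DMSO high and 58.8, 51.6 and 46.4 CPM in DMSO low cells (0.76 ± 0.10, adjusted p = 1.47e-06). PHF8, a PHD-finger demethylase of H3K9 and H4K20, stood at 33.3, 34.4 and 37.4 CPM against 46.2, 41.2 and 44.6 CPM (-0.33 ± 0.07, adjusted p = 0.00018). Neither gene had overlapping groups. KDM3A was higher by 0.32 ± 0.07 (adjusted p = 0.000415) and KDM7A lower by 0.70 on the log2 scale (-0.70 ± 0.17, adjusted p = 0.00157). KDM7A was also the member with the lowest level per length. KDM3B and PHF2 were not called.

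The H3K4 trimethyl demethylases of the KDM5 family split. KDM5B, known in melanoma cultures as a marker of a slow-cycling fraction, stood at 54.7, 55.3 and 56.7 CPM in DMSO high and 107, 97.5 and 105 CPM in DMSO low cells. The low cells held 1.86-fold more (-0.90 ± 0.09, adjusted p = 2.45e-08). KDM5A, which cells tolerant to kinase inhibitors are known to need in other cancers, stood at 157, 154 and 152 CPM against 116, 104 and 113 CPM (0.47 ± 0.07, adjusted p = 4.62e-06). Each of the 3 high libraries was thus below all low ones for KDM5B and above them for KDM5A. KDM5C was higher by 0.19 ± 0.05 (adjusted p = 0.00324).

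The H3K27 demethylases split in the same manner. KDM6A (UTX), the X-linked one, stood at 33.6, 27.9 and 28.8 CPM in DMSO high and 21.8, 20.1 and 19.2 CPM in DMSO low cells (0.56 ± 0.09, adjusted p = 1.86e-05). KDM6B (JMJD3), an inducible relative, stood at 40.8, 33.2 and 46.3 CPM against 54.5, 51.1 and 52.1 CPM (-0.39 ± 0.09, adjusted p = 0.00105). The groups of neither gene overlapped, although the third high library of KDM6B came within reach of the low ones.

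Bulk libraries were placed between the sorted groups of the same treatment, on a scale from 0 (mean of low cells) to 1 (mean of high cells). The position is the median over the 34 members called under DMSO. DMSO bulk replicate 1 lay at 0.48, and replicates 2 and 3 at 0.07 and 0.11. On the scale of the EPZ5676 groups, the EPZ5676 bulk libraries lay at 0.11, 0.16 and 0.20. The scales of the treatments differ, and 5 of the 34 members were not called under EPZ5676, so positions are not compared between treatments. The members thus put the library that stood apart about midway.

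**Figure D2:**
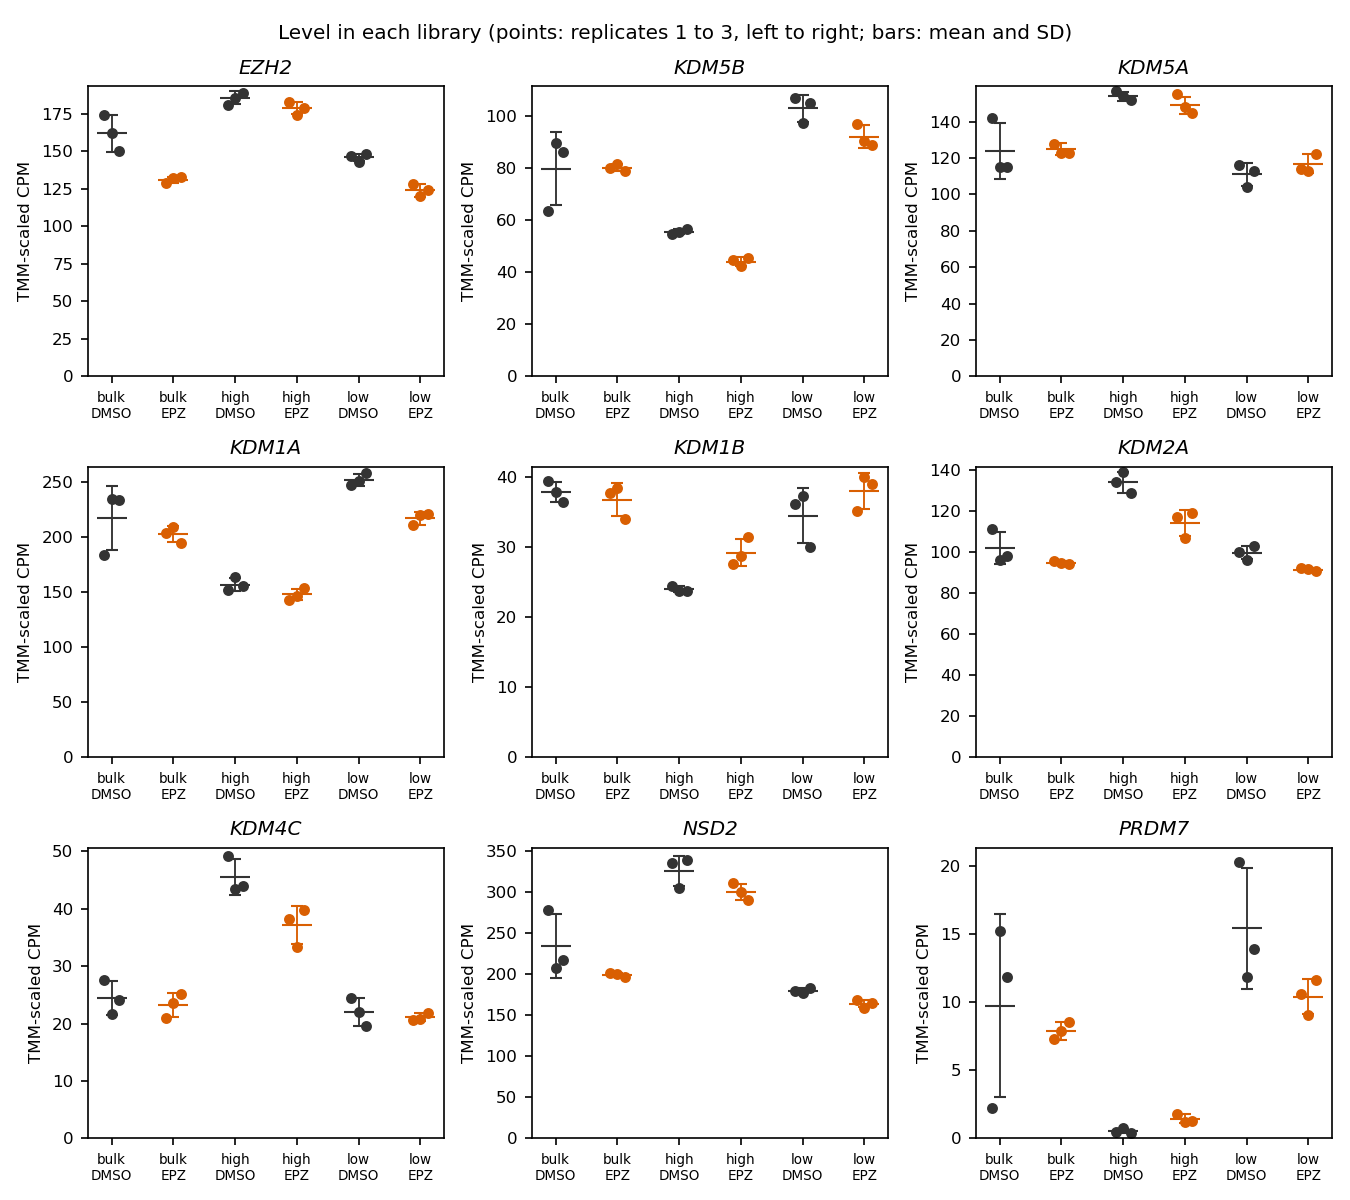
TMM-scaled CPM of 9 members in each of the 18 libraries (points, replicates 1 to 3 from left to right; bars show the mean and SD, n = 3), for bulk, high and low cells under DMSO (black) and EPZ5676 (orange, EPZ). KDM5B and KDM1A lie lowest in high cells and KDM5A, KDM2A, KDM4C and NSD2 highest; the first DMSO bulk library of PRDM7 is at 2.25 CPM, below the other DMSO bulk libraries.

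High and low cells were compared again under EPZ5676, with libraries that the comparison under DMSO does not share. Of the 48 members, 30 were called (62.5%), 15 higher and 15 lower, where 48.9% of all tested genes were called (25.8% higher and 23.1% lower). Of these, 29 had also been called under DMSO, all 29 in the same direction, and 45 of the 48 members had the same sign. ASH1L, KDM4B, KDM5C, KMT5B and SUV39H2 were called under DMSO only, and KMT2C, a writer of H3K4 monomethylation, under EPZ5676 only (-0.21 ± 0.07, adjusted p = 0.0233, against -0.04 ± 0.07 under DMSO). KMT2A, MEN1 and KMT5A were near the threshold (adjusted p = 0.0905, 0.0696 and 0.0673). Of the 34 members called under DMSO, 23 had a smaller difference under EPZ5676. As the 34 were picked by their difference under DMSO, this count cannot show an effect of the drug. The median size of the difference was 0.28 under DMSO and 0.22 under EPZ5676 over the members. Over all tested genes it was 0.42 and 0.35. Calls and signs shared by the treatments were not counted over all tested genes.

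Most of the large differences kept their order. KDM5B stood at 44.8, 42.2 and 45.4 CPM in EPZ5676 high and 97, 90.6 and 88.8 CPM in EPZ5676 low cells (-1.06 ± 0.09). NSD2 was at 311, 300 and 290 against 168, 159 and 165 CPM (0.87 ± 0.08), and KDM4C at 38.2, 33.4 and 39.7 against 20.6, 20.8 and 21.8 CPM (0.82 ± 0.10). None of these 3 had overlapping groups. KDM1A was at 143, 147 and 154 against 211, 220 and 221 CPM (-0.55 ± 0.07), and KDM1B at 27.6, 28.7 and 31.4 against 35.1, 40 and 39 CPM (-0.38 ± 0.08). KDM5A was at 155, 148 and 145 against 114, 113 and 122 CPM (0.36 ± 0.07). These too were separate in every library.

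SETD7 stood at 138, 135 and 131 CPM in EPZ5676 high and 76.1, 78.6 and 84.8 CPM in EPZ5676 low cells, SETDB2 at 24.8, 26.4 and 27 against 42.7, 43.9 and 41.2 CPM, and NSD3 at 103, 106 and 101 against 73.7, 79 and 79 CPM. The H3K9 demethylase JMJD1C was at 70.6, 71 and 70.7 against 45.4, 48.2 and 47.5 CPM, and PHF8 at 36.9, 37.9 and 37.7 against 43.1, 42 and 42.7 CPM. PRDM2 was at 50.5, 56.2 and 52 against 71.6, 71.5 and 69.7 CPM, and EED at 42.3, 44.2 and 43.7 against 36.7, 32.2 and 30.9 CPM. None of these groups overlapped, and the signs were those under DMSO. KDM6A was at 26.3, 26.8 and 26.5 against 22.7, 20 and 21.9 CPM, KDM6B at 39.6, 39.7 and 41.3 against 51.9, 53.3 and 51.3 CPM, and SMYD5 at 38.7, 45 and 42.4 against 51.3, 51.9 and 54.8 CPM. KMT5B, at 37.4, 40.2 and 41.7 against 39.1, 36.4 and 38 CPM, had overlapping groups under EPZ5676 (0.07 ± 0.08, adjusted p = 0.502).

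**Figure D3:**
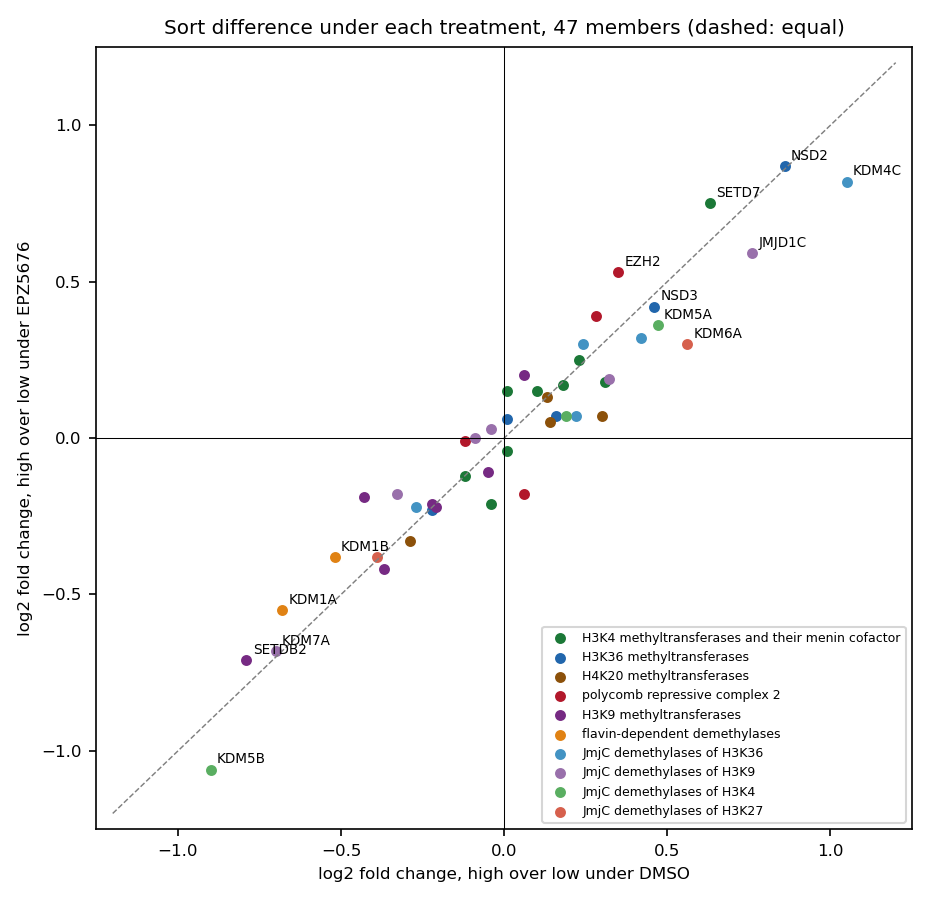
Log2 fold change of high over low cells under DMSO (x axis) and under EPZ5676 (y axis) for 47 tested members, coloured by role, with the dashed line marking equal differences; PRDM7 is outside the axes. Points lie along the line, with KDM6A, KDM4C and JMJD1C below it on the right.

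A difference between these 2 sort comparisons is the interaction of treatment and sort, and it was tested as such. No member was called by edgeR's quasi-likelihood test, where 0.32% of all tested genes were called. At an unadjusted p under 0.05 there was 1 member, EZH2, where 11.1% of all tested genes were, and neither DESeq2 nor limma-voom called any. The members called under only 1 treatment are therefore not shown to differ between treatments. The sort difference of EZH2 was 0.35 ± 0.05 under DMSO and 0.53 ± 0.05 under EPZ5676, with an interaction of 0.18 ± 0.08 (adjusted p = 0.369).

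The drug changed few members in any population, and most differences were small. In bulk cells 1 of 48 members was called, lower, where 0.728% of all tested genes were called and 0.232% were called lower. In high cells 2 were called, both lower, where 3% of all tested genes were called and 1.04% were called lower. In low cells 1 was called, lower, where 1.04% were called and 0.326% were called lower. The median size of the log2 fold change over the members was 0.07 in bulk and in high cells and 0.06 in low cells, against 0.12, 0.14 and 0.12 over all tested genes. Averaged over high and low cells, 4 were called, 3 lower and 1 higher, where 3.94% of all tested genes were called (1.55% lower and 2.4% higher).

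EZH2 fell in bulk and in low cells. In bulk it stood at 174, 162 and 150 CPM under DMSO and 129, 132 and 133 CPM under EPZ5676. All treated libraries lay below all controls (-0.31 ± 0.05, adjusted p = 0.00729). In low cells it went from 147, 143 and 148 to 128, 120 and 124 CPM, again with no overlap (-0.23 ± 0.05, adjusted p = 0.0323). In high cells the libraries overlapped, at 181, 186 and 189 CPM under DMSO and 183, 174 and 179 CPM under EPZ5676 (-0.05 ± 0.05, adjusted p = 0.691). The interaction above is the test of that difference between high and low cells, and it did not pass.

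Without DMSO bulk replicate 1 the difference of EZH2 in bulk was -0.26 (adjusted p = 0.00263). In a fit of the bulk groups alone it was -0.30 and not called (adjusted p = 0.399 in edgeR's quasi-likelihood test). Over only the libraries with a no-feature share of up to 16% it was -0.30, with 1 EPZ5676 bulk library left. In low cells it was -0.26 over those libraries (adjusted p = 0.438), and -0.23 with an adjusted p of 0.00133 without DMSO bulk replicate 1. The low-cell call was lost when any 1 of the 6 low libraries was left out, with values from -0.26 to -0.21. Proliferation genes also differed between treated and control libraries: 20 of them summed to 4920 to 4940 CPM in DMSO low and 4670 to 4720 CPM in EPZ5676 low cells, to 5200 to 5790 against 5030 to 5210 CPM in bulk, and to 5800 to 6070 against 6040 to 6140 CPM in high cells. Their median log2 fold change was -0.09 in low, -0.10 in bulk and 0.05 in high cells, and 1 of 20 was called in low cells (lower), 0 in bulk and 0 in high cells by the same test. At an unadjusted p under 0.05 there were 9 of 20 in low cells, 8 in bulk and 9 in high cells, where 12%, 12.3% and 16.3% of all tested genes were. The groups did not overlap for 12 of 20 in low cells, 9 in bulk and 8 in high cells, against 23.1%, 15.9% and 24.8% of all tested genes. The part of proliferation in the fall of EZH2 was not tested.

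The partners of EZH2 were not called: EED had -0.18 ± 0.08 in bulk and -0.17 ± 0.08 in low cells (adjusted p = 0.394 and 0.414), and SUZ12 0.03 ± 0.07 and -0.14 ± 0.07 (adjusted p = 0.936 and 0.481). In bulk EED stood at 40.4, 34 and 39 CPM under DMSO and 34.1, 33.2 and 33.2 CPM under EPZ5676. The bulk groups of EED overlapped.

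KDM5B and KDM2A fell in high cells. KDM5B went from 54.7, 55.3 and 56.7 CPM under DMSO to 44.8, 42.2 and 45.4 CPM under EPZ5676, with all treated libraries below all controls (-0.33 ± 0.09, adjusted p = 0.0418). In low cells it went from 107, 97.5 and 105 to 97, 90.6 and 88.8 CPM (-0.17 ± 0.08, adjusted p = 0.448). In bulk it stood at 63.6, 89.5 and 86.3 CPM under DMSO and 80.2, 81.6 and 78.9 CPM under EPZ5676. These groups overlapped (0.01 ± 0.09) through DMSO bulk replicate 1, at 63.6 CPM. Without that library all treated bulk libraries lay below the controls, and the difference was -0.13 ± 0.06 (adjusted p = 0.272). Averaged over high and low cells the difference was -0.25 ± 0.06 (adjusted p = 0.0217). This shift in high cells was away from the level of low cells.

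KDM2A went from 134, 139 and 129 CPM to 117, 107 and 119 CPM in high cells (-0.23 ± 0.06, adjusted p = 0.0398). In low cells it went from 100, 96.2 and 103 to 92.1, 91.6 and 90.7 CPM (-0.12 ± 0.06, adjusted p = 0.412). In bulk it went from 111, 96.1 and 98 to 95.4, 94.8 and 94.1 CPM (-0.10 ± 0.06, and -0.04 ± 0.06 without DMSO bulk replicate 1). The treated libraries lay below the controls in all 3 populations, and the average over high and low cells was -0.17 ± 0.04 (adjusted p = 0.0185). This shift in high cells was toward the level of low cells.

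Both calls in high cells were close to the threshold. KDM5B lost its call when any of 13 of the 18 libraries was left out, and KDM2A with any of 12, with differences that stayed between -0.35 and -0.30 and between -0.26 and -0.18. DMSO bulk replicate 1 acted the other way: without it the adjusted p was 7.79e-05 for KDM5B and 0.0024 for KDM2A. Over only the libraries with a no-feature share of up to 16% the differences were -0.27 and -0.18, with 1 EPZ5676 high library and no call (adjusted p = 0.896 and 0.869). Melanocyte markers also moved in high cells, with 2 of 8 called higher (median 0.41) and a summed level of 1230 to 1450 CPM under DMSO and 1850 to 2020 CPM under EPZ5676. The 8 fibroblast markers summed to 1080 to 1410 CPM under DMSO and 603 to 743 CPM under EPZ5676 in high cells; for each of the 7 tested the groups did not overlap, and 1 was called (LUM, higher). The part of either list in the members' changes was not tested.

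KDM1B rose over the sorted cells. It went from 24.5, 23.7 and 23.8 CPM to 27.6, 28.7 and 31.4 CPM in high cells, with no overlap (0.28 ± 0.09, adjusted p = 0.0784). In low cells it went from 36.2, 37.3 and 30 to 35.1, 40 and 39 CPM, with overlap (0.14 ± 0.08). Only the average over both was called (0.21 ± 0.06, adjusted p = 0.0464), and leaving out any of 13 libraries ended that call, with values from 0.17 to 0.30 over all alternatives. In bulk it stood at 39.4, 37.9 and 36.5 CPM under DMSO and 37.8, 38.5 and 34 CPM under EPZ5676 (-0.04 ± 0.08). JMJD1C was near the threshold in high cells (-0.32 ± 0.10, adjusted p = 0.0822) and on average (-0.23 ± 0.07, adjusted p = 0.0617), and KDM1A on average (-0.15 ± 0.05, adjusted p = 0.0962).

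PRDM7 moved in opposite directions in the sorted cells. In high cells it went from 0.486, 0.723 and 0.416 CPM to 1.81, 1.23 and 1.29 CPM, and in low cells from 20.3, 11.8 and 13.9 to 10.6, 9.03 and 11.6 CPM. All treated high libraries lay above their controls and all treated low libraries below theirs, so that the gap between high and low cells was 27.2-fold under DMSO and 7.20-fold under EPZ5676. In bulk EPZ5676 it stood at 7.25, 7.86 and 8.54 CPM. None of these passed the test: the difference was 1.35 ± 0.81 in high cells (adjusted p = 0.457), -0.56 ± 0.42 in low cells (adjusted p = 0.662) and -0.32 ± 0.44 in bulk (adjusted p = 0.837), and the interaction was 1.92 ± 0.91 (adjusted p = 0.467). The outcome depends on DMSO bulk replicate 1. Without that library the differences were 1.35 ± 0.36 (adjusted p = 0.014), -0.57 ± 0.16 (adjusted p = 0.0299) and -0.77 ± 0.18 (adjusted p = 0.0131), and the interaction 1.91 ± 0.39 (adjusted p = 0.00258). The treated high libraries held 80 counts of PRDM7 in all and the control high libraries 29.

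Leaving out DMSO bulk replicate 1 raised the share of called genes in the comparisons of EPZ5676 with DMSO and in the interaction, so the members' counts are given beside it. In high cells 8 members were called without it (KDM4C, KDM5B, KDM4B, JMJD1C and KDM2A lower, and PRDM7, SETDB2 and KDM1B higher), where 10.7% of all tested genes were. In bulk 3 were called, all lower (KDM1A, EZH2 and PRDM7; 2.93% of all tested genes), and the same 3 in low cells, all lower (5.15%). Averaged over high and low cells there were 8 (10.2%), and in the interaction PRDM7 (5.71%).

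**Figure D4:**
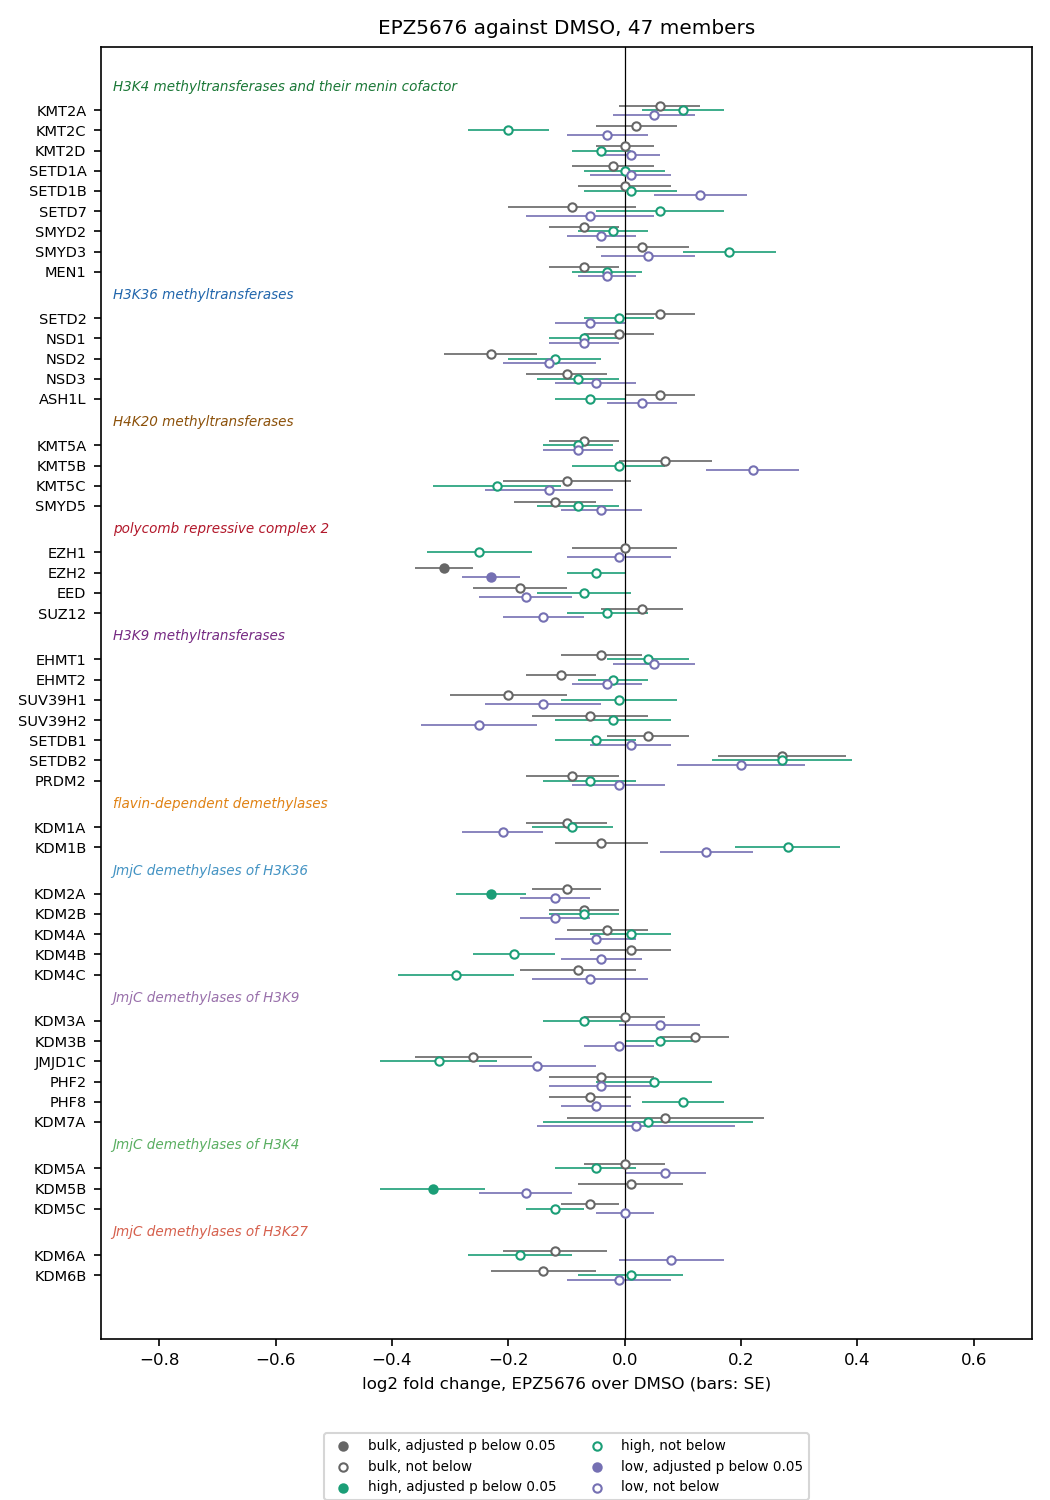
Log2 fold change of EPZ5676 over DMSO (x axis, bars show the SE) in bulk (grey), high (green) and low (purple) cells for 47 tested members in rows by role, with filled points where the adjusted p was below 0.05; PRDM7 is not drawn. The filled points are EZH2 in bulk and low cells and KDM5B and KDM2A in high cells.

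The remaining members were not called under the drug by the test over all 18 libraries. Not all of their differences were smaller than those of called members. Without DMSO bulk replicate 1, KDM4C had -0.29 ± 0.08 and SETDB2 0.27 ± 0.08 in high cells, where KDM2A had -0.22 ± 0.05. Over all 48 tested members, those described above included, the groups did not overlap for 10 in bulk, 14 in high cells and 9 in low cells. The shares of all tested genes were 15.9%, 24.8% and 23.1%. Among the H3K4 methyltransferases, H3K36 methyltransferases and H4K20 methyltransferases none was called in any comparison of EPZ5676 with DMSO by the test over all 18 libraries; at an unadjusted p under 0.05 there were 0, 1 and 0 in bulk, 2, 0 and 1 in high cells and 0, 0 and 1 in low cells, where 12.3%, 16.3% and 12% of all tested genes were below that p in bulk, high and low cells. The 13 members not called in any comparison were EZH1, KDM3B, KMT2A, KMT2D, KMT5A, KMT5C, MEN1, PHF2, SETD2, SETDB1, SMYD3, SUV39H1 and SUZ12. NSD2, for which the treated bulk libraries (201, 200 and 197 CPM) all lay below the controls (278, 207 and 217 CPM), had -0.23 ± 0.08 (adjusted p = 0.195), and -0.09 ± 0.05 without DMSO bulk replicate 1.

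Of 43 other enzymes and subunits of histone lysine methylation, 37 were tested. Under DMSO 12 were higher and 13 lower in high cells (67.6% called, against 56.3% of all tested genes), and under EPZ5676 12 were higher and 7 lower (51.4% against 48.9%). The accessory subunits of polycomb repressive complex 2 differed in direction: JARID2 was at 54.7 ± 3.69 CPM in DMSO high and 95.9 ± 5.64 CPM in DMSO low cells (-0.81 ± 0.07), and PHF19 at 121 ± 11.2 against 78.6 ± 3.04 CPM (0.62 ± 0.08). CBX5, the heterochromatin protein that binds methylated H3K9, was at 284 ± 26.9 against 113 ± 4.61 CPM (1.33 ± 0.13), while CBX1 and CBX3 were lower (-0.19 ± 0.05 and -0.30 ± 0.06). Between EPZ5676 and DMSO, 0 of the 37 were called in bulk, where 0.728% of all tested genes were. In high and in low cells 1 of the 37 was called (2.7%), where 3% and 1.04% of all tested genes were. In both this was HR, a JmjC-domain corepressor assigned to H3K9. It rose from 19.6, 19 and 23.5 to 32.4, 27.1 and 32.5 CPM in high cells (0.57 ± 0.09, adjusted p = 0.000955) and from 18.3, 18.5 and 17.4 to 31.7, 28.5 and 32 CPM in low cells (0.76 ± 0.09, adjusted p = 9.15e-05), with no overlap in either.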

How the data were processed

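RNA was measured in 18 libraries, 3 in each of 6 groups, as raw counts per Ensembl gene deposited by the authors. Per the submitters' processing notes, the tools were STAR and HTSeq and the build hg19; versions, annotation and strand setting are not given in the sources used here. Libraries held 13383741 to 26311674 gene counts, and the 5 summary lines were left out; the no-feature share was 12.8% to 28.65%. Genes passing filterByExpr (18121) were TMM-scaled and fitted by group with the robust quasi-likelihood model of edgeR 4.0.16 (R 4.3.3) over all 18 libraries, for 7 comparisons, with adjusted p-values over all tested genes; SEs came from the F statistics. The code was tested on simulated data.

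Members, roles, lists and tests were chosen with earlier results of these data known. The rule for described genes took every member called under EPZ5676, in each role the 2 called members with the smallest p between high and low cells under DMSO, and EZH2 and PRDM7; KDM7A, HR and the other listed genes were named after their values were seen. Alternatives were RLE factors, library size alone, no filter, DESeq2 1.42.0, a CPM mean of at least 5, limma-voom (limma 3.58.1), only the groups compared, the replicate block, each library left out, and the no-feature share as a limit (16%) or covariate; leaving out DMSO bulk replicate 1 together with the covariate was added after seeing the data. Placing bulk libraries used log2(CPM + 0.5). Start-site windows came from RefSeq on GRCh38.p14 and exon lengths from GENCODE 29.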

Additional observations from a re-analysis of the deposited data

Results flagged for a closer look

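PRDM7 is listed because the difference of EPZ5676 from DMSO had opposite signs in the sorted cells: all 3 treated high libraries lay above their controls and all 3 treated low libraries below theirs. The interaction of treatment and sort was 1.92 ± 0.91 on the log2 scale (adjusted p = 0.467 in edgeR's quasi-likelihood test), and 1.91 ± 0.39 (adjusted p = 0.00258) without DMSO bulk replicate 1. The high libraries held 29 counts under DMSO and 80 under EPZ5676.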

How the results depend on the processing

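Of 72 calls of a member in a comparison, 41 held under all 29 alternatives, 55 held whichever library was left out, and 0 changed sign. Of the 34 calls between high and low cells under DMSO, 29 held throughout; the others were SETD1A, ASH1L, KDM5C, KDM4B and EHMT1. Of the 30 under EPZ5676, 12 held. Leaving out each library in turn gave 32 to 34 called members for high against low cells under DMSO, 25 to 31 under EPZ5676, 1 to 3 for EPZ5676 in bulk, 0 to 8 in high cells, 0 to 3 in low cells, 0 to 8 on average and 0 to 1 for the interaction; the highest count for each EPZ5676 comparison and the interaction came without DMSO bulk replicate 1. In high cells, 0 members were called without DMSO high replicates 1 or 3 or any single EPZ5676 library, and 1 without DMSO high replicate 2 or DMSO low replicate 3. In low cells, 0 were called without any single one of the 6 low libraries. On average over high and low cells, 0 were called without EPZ5676 high replicate 2, 1 without DMSO low replicates 1 or 3 or EPZ5676 low replicates 2 or 3, and 2 without DMSO high replicate 3 or EPZ5676 high replicate 3.

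Over only libraries with a no-feature share of up to 16%, with fewer samples, 12 members were called between high and low cells under EPZ5676 and 0 for EPZ5676 in bulk, in high cells, in low cells and on average. A fit of only the groups compared called 0 in bulk, 5 in high cells, 3 in low cells, 8 on average and 1 in the interaction. Without a filter there were 2 in bulk and 4 in high cells. In high cells library size alone gave 0, limma-voom 1 and the no-feature covariate 1. The covariate without DMSO bulk replicate 1 gave 2 in bulk, 9 in high cells, 4 in low cells, 8 on average and 1 in the interaction. Counts over all tested genes moved with the setting as well, over the ranges given below. The member counts of this section are therefore not read as results about the members. The cause of these shifts was not tested.

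With the replicate number as a block, 1 member was called in high cells (KDM2A), and no other member count moved by over 1.5 times. Over all groups, the replicate numbers did not show pairing. Deviations of same-numbered libraries correlated above 0.1 in 8 of 45 pairs (-0.354 to 0.299, median 0.004, against -0.001 for other pairs). The check cannot exclude pairing, because the deviations also differed with the no-feature share. EPZ5676 bulk replicate 2 (13.8%) correlated at 0.409 with EPZ5676 high replicate 3 (12.8%) and at -0.444 with EPZ5676 low replicate 1 (23.9%). Whether this share hid a pairing was not tested.

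Counts over all genes ranged over the alternatives from 0 to 550 in bulk (132 as reported), 5 to 2018 in high cells (543), 7 to 1028 in low cells (188), 45 to 1918 on average (714), 0 to 1072 for the interaction (58), 7930 to 10798 for high against low under DMSO (10199) and 4176 to 9672 under EPZ5676 (8858). With library size alone the average over high and low cells had 512 genes higher and 195 lower, against 434 and 280. Depth limits PRDM7, with 29 counts in DMSO high cells.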
